A study of Mus musculus with 62 samples.

Results

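The genes described here are 36 astrocyte genes, taken by name from a list of astrocyte marker, transport, junction, metabolic, secreted and reactivity genes, out of 27179 genes in the count tables. They were measured by RNA-seq of mouse brain tissue in 62 libraries. Earlier results of these data were known when the list was drawn up, among them the lower level of Agt in the adult male Ts65Dn hippocampus. All 36 were found in the tables. None of them lies in the chromosome segments that are triplicated in Ts65Dn, which hold 198 genes of the tables, so the genes are present at normal copy number in every group.

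Astrocytes are the star-shaped glia of the brain. They clear glutamate and potassium from around synapses, are joined to each other by gap junctions, ensheathe blood vessels with end feet rich in the water channel aquaporin 4, store glycogen and secrete proteins that act on synapses and vessels. In the rodent forebrain they arise late in gestation from radial glia, which already express several of the same genes, and mature after birth. When the tissue is injured or inflamed they become reactive, with higher levels of genes such as Gfap and Lcn2.

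The study asked how trisomy changes expression in the developing and adult brain, and whether lowering the dose of Brwd1, a chromatin reader gene within the triplicated segment, alters it. Ts65Dn mice carry an extra, translocated chromosome with a segment of mouse chromosome 16 orthologous to human chromosome 21, and also a stretch of chromosome 17 that is not, which limits them as a model of Down syndrome. Forebrain was taken at E17.5 (the embryonic day) from 8 euploid and 7 Ts65Dn embryos whose sex the labels do not give. The levels of Xist and Ddx3y, genes of the sex chromosomes, were those of males in euploid 3 and 6 and Ts65Dn 1, 2 and 7. In the other embryos they were those of females. Hippocampus was taken at 6 weeks from male euploid (n = 8), Ts65Dn (n = 7) and Ts65Dn;Brwd1+/- (n = 8) mice and from female mice of the same genotypes (n = 8 each). Ts65Dn;Brwd1+/- mice are trisomic mice in which 1 of the Brwd1 copies is mutated, in every tissue and from conception. All groups shared a mixed DBA/2J x B6EiC3Sn/J background, and no group of Brwd1+/- mice without trisomy was analysed here. The tissue is bulk tissue, in which fewer astrocytes and less RNA per astrocyte cannot be told apart.

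Libraries held 14.9 to 62.6 M (mega) counted reads in euploid embryos and 18.3 to 58.7 M in Ts65Dn embryos, with medians of 23.7 and 43.1 M, and 33.6 to 137.1 M in adults. Brwd1 itself had median levels of 107, 151 and 139.1 CPM (read counts scaled per M reads of the library's effective size) in male euploid, Ts65Dn and Ts65Dn;Brwd1+/- mice, of 124, 163 and 147 CPM in females, and of 187 and 259 CPM in euploid and Ts65Dn embryos. In 4 libraries labelled trisomic the triplicated genes stood at the euploid level, with a median log2 ratio to euploid of -0.01 to 0.04, against 0.45 to 0.57 in the other 27 adult trisomic libraries. These were B145 of male Ts65Dn, B138 and T35 of male Ts65Dn;Brwd1+/- and B136 of female Ts65Dn;Brwd1+/-. In 2 more libraries, B88 of male Ts65Dn and B85 of female euploid, genes of the sex chromosomes went against the labelled sex. All 6 were kept under their labels, and the adult calls are also given without them. The female libraries B125 (euploid) and B176 (Ts65Dn;Brwd1+/-) held the lowest levels of Slc1a2 among all 47 adults, 1486 and 1295 CPM, and results that rest on them are given without them as well.

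The marker genes of astrocytes were detected in every library. Gfap, the intermediate filament gene of mature astrocytes, ranged from 1.65 to 15.8 CPM with a median of 7.60 CPM in the 15 forebrains and from 252 to 535 CPM with a median of 339 CPM in the 47 hippocampi. Aqp4, the aquaporin of the end feet, ranged from 7.07 to 42.7 CPM in forebrain and from 102 to 199 CPM in hippocampus. Aldh1l1, a folate enzyme that marks astrocytes widely and radial glia as well, ranged from 32.4 to 82.1 CPM in forebrain and from 33.8 to 60.2 CPM in hippocampus. Both tissues also held other cells, and the summed level of 8 neuronal genes was 2110 to 2690 CPM in forebrain and 11000 to 15200 CPM in hippocampus. The summed level of 10 radial glia genes, none of them among the 36, was 1620 to 1960 CPM in forebrain and 418 to 580 CPM in hippocampus.

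Between the embryonic and the adult tissue most of the 36 genes differed in level by several fold. Levels were compared per kilobase of exon (RPKM) on a scale common to all libraries, in euploid mice of both sexes, as a description without a test, since age and brain region differ together and cannot be told apart. Of the 35 genes that passed the minimum level, 27 had all 16 adult libraries above all 8 embryonic libraries, and 1 had all adult libraries below, where 25.1% and 23.2% of all 16034 genes did so in either direction. The median ratio of adult to embryonic level was 5.78 over all 36 genes, including the 1 below the minimum level, and 0.998 over the 16034 genes. Without B85, the euploid female that went against its labelled sex, 27 and 1 of the 35 genes again did so, where 25.3% and 24.2% of all genes did, and the median ratio was 5.88. Lcn2, a secreted lipocalin of reactive astrocytes, was the gene that did not pass.

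**Figure D1:**
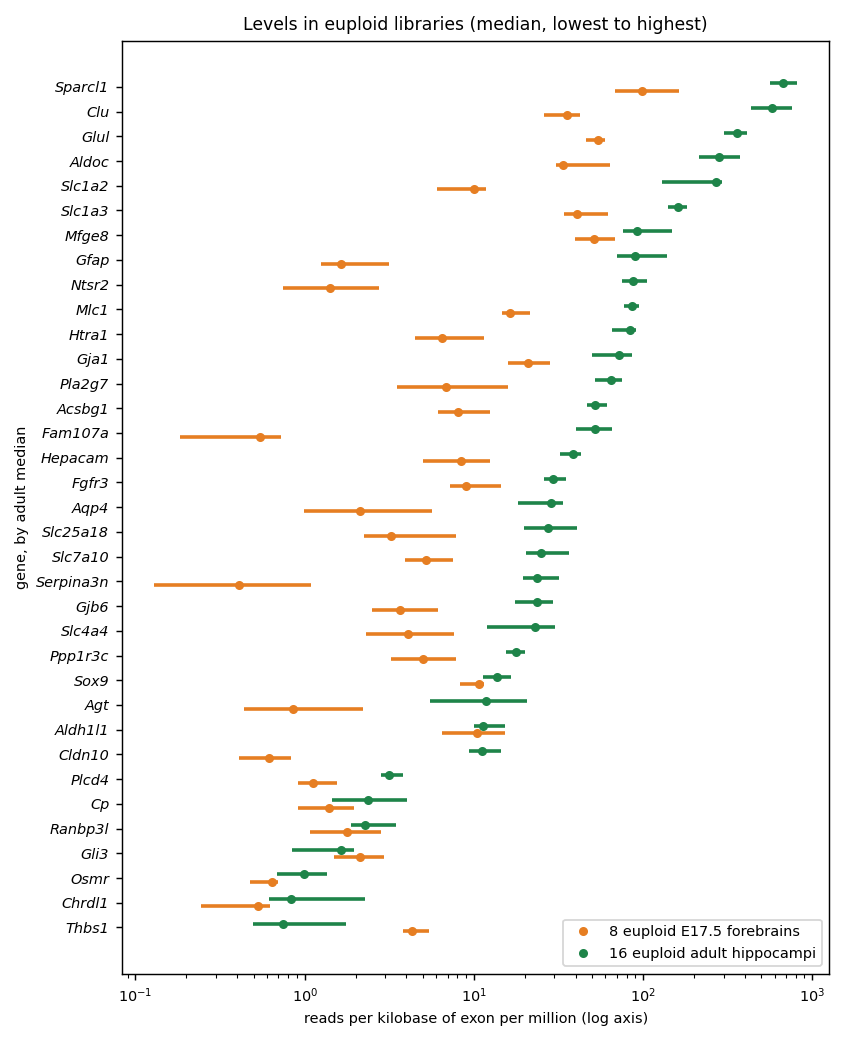
Levels of 35 astrocyte genes in euploid embryonic forebrain and euploid adult hippocampus, in RPKM on a log axis, with each gene's median and range over libraries. In 27 of the 35 genes all 16 adult libraries lay above all 8 embryonic libraries, and Thbs1 was the gene with all adult libraries below.

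The ratio was highest for Fam107a, an actin-associated stress-response gene, at 95.1, from 0.546 to 51.9 RPKM. Ntsr2, a neurotensin receptor gene of astrocytes, followed at 61.3, from 1.42 to 86.9 RPKM. Serpina3n, a secreted protease inhibitor of reactive glia, stood at 0.410 and 23.8 RPKM, a ratio of 58.0, and Gfap at 1.65 and 89.4 RPKM, a ratio of 54.3. These 4 genes were low in the embryo and had adult levels well inside the range of the other astrocyte genes.

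The genes highest in the adult hippocampus encode a secreted matrix protein, a chaperone and metabolic or transport proteins. Sparcl1, a synapse-promoting matrix protein, had a median of 673 RPKM with a range of 563 to 817 RPKM, and Clu, the extracellular chaperone clusterin, had 583 RPKM with a range of 433 to 760 RPKM. Glul, which makes glutamine from glutamate, stood at 361 RPKM (300.0 to 413), Aldoc, the brain aldolase of glycolysis, at 281 RPKM (215 to 376) and Slc1a2, the main glutamate transporter, at 270 RPKM (129.9 to 294). In this order the range of each gene overlapped with that of the next, other than Clu and Glul, whose ranges were apart. Slc1a2 stood at 10.02 RPKM in the embryo, a ratio of 27.

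In 7 genes the embryonic and adult ranges overlapped. Aldh1l1 had medians of 10.4 RPKM in the embryo and 11.3 RPKM in the adult with overlapping ranges, and Sox9, a transcription factor of gliogenesis, had 10.7 and 13.8 RPKM, also overlapping. Cp, Ranbp3l, Osmr, Chrdl1 and Gli3 overlapped between the stages too. Thbs1, a secreted thrombospondin that promotes synapse formation, was the reverse of the rest, with 4.33 RPKM in the embryo and 0.743 RPKM in the adult, 5.82-fold higher in the embryo.

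The spread between libraries of a group also differed by gene and stage. In the embryonic forebrain the pooled SD of log2 levels within groups was 0.70 for Gfap, 0.63 for Aqp4, 0.62 for Pla2g7, 0.57 for Serpina3n and 0.55 for Agt, against a median of 0.19 over 14878 genes. Glul was the least spread of the 36 there, with an SD of 0.13. In the hippocampus Thbs1 (0.57), Cp (0.41) and Agt (0.38) were the most spread and Slc1a3, the glutamate transporter GLAST, was the least (0.09), against a median of 0.17 over 14405 genes. Differences of the size found below for Gja1 in the embryo would thus be smaller than 1 SD for embryonic Gfap and Aqp4.

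In the Ts65Dn embryonic forebrain, 3 of the 35 astrocyte genes tested were higher than in euploid embryos and none was lower, by edgeR's quasi-likelihood test with Benjamini-Hochberg adjustment over all genes at a threshold of 0.1. Among all 16395 genes tested, 1.35% were called. The 3 genes were Gja1 and Gjb6, which encode connexin 43 and connexin 30, the main subunits of astrocyte gap junctions, and Cp, the copper-carrying ferroxidase ceruloplasmin, which astrocytes hold at the cell surface. A positive fold change was found in 29 of the 35 genes (82.9%), against 46.3% of all genes, and the median log2 fold change was 0.19, against -0.01. At an unadjusted p below 0.05 there were 9 genes (25.7%), against 12.1% of all genes.

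The 250 bases upstream of the annotated transcript starts of Gja1, Gjb6 and Cp are given from RefSeq on GRCm38.p6, on the strand of the gene, for a reader to set the genes side by side. Those of Agt and Pla2g7, called in adults, are shown further on. The window of Slc1a2, also called in adults, is at chr2:102706188-102706437, inside the annotated gene, which begins at 102658239. It held none of the motifs named below and is not shown. This says nothing of the sequence before the gene. The 2 connexin genes are on different chromosomes, Gja1 at chr10:56377050-56377299 (plus strand) and Gjb6 at chr14:57133612-57133861 (minus strand). Cp has 2 listed starts, of which the downstream one is shown, at chr3:19956999-19957248 (plus strand). This Cp window lies inside the annotated gene, which begins at 19956933. Capitals mark matches on either strand to TATAA (the TATA box), CCAAT (the CCAAT box) or TTCNNNGAA (the element bound by STAT factors). Of 32851 mouse promoters, 22.8%, 33.8% and 7.02% held these letters in the same window, and of 38 promoters matched for 30 of the 36 genes, 5, 13 and 6 did.
Gja1: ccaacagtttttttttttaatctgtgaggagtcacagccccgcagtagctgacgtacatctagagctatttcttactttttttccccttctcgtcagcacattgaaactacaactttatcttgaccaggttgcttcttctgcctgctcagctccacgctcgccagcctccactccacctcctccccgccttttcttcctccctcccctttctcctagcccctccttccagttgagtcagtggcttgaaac
Gjb6: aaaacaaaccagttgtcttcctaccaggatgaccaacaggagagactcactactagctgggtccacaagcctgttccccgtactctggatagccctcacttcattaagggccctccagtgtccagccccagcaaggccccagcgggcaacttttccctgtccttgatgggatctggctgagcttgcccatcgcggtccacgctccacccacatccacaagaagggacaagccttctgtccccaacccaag
Cp: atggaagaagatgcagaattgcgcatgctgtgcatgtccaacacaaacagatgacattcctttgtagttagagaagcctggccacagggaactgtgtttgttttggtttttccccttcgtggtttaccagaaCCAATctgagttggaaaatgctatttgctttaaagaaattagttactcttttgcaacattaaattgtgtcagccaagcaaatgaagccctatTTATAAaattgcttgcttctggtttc
The Cp window shown held the letters of a CCAAT box at position -118. It also held those of a TATA box at positions -26 and -25, the latter being the same bases read on both strands. The window of the other Cp start, at chr3:19956804-19957053, held none of the 3 motifs. Neither connexin window held any of the 3 motifs, which says only that these letters are not in these windows.

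Gja1 ranged from 63.7 to 112 CPM with a median of 85.5 CPM in the 8 euploid embryos and from 117 to 147 CPM with a median of 132.6 CPM in the 7 Ts65Dn embryos. All 7 Ts65Dn libraries lay above all 8 euploid libraries. The log2 fold change was 0.59 ± 0.13 (SE), with an adjusted p of 0.033.

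Gjb6 ranged from 6.27 to 15.2 CPM with a median of 9.19 CPM in euploid embryos and from 14 to 21.3 CPM with a median of 14.6 CPM in Ts65Dn embryos. All 7 Ts65Dn libraries lay above the euploid median and 3 of them above every euploid library. The log2 fold change was 0.69 ± 0.18, with an adjusted p of 0.0913.

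Cp ranged from 6.31 to 13.6 CPM with a median of 9.76 CPM in euploid embryos and from 9.71 to 18 CPM with a median of 15.4 CPM in Ts65Dn embryos. Of the Ts65Dn libraries 6 lay above every euploid library, and Ts65Dn replicate 1, at 9.71 CPM, lay within the euploid range. The log2 fold change was 0.66 ± 0.16, with an adjusted p of 0.0694. Of these calls that of Gja1 was kept whichever library was left out, with adjusted p from 0.0133 to 0.0787. That of Cp was lost without any 1 of 9 libraries (euploid 2, 4, 5 and 7 and Ts65Dn 2, 3, 5, 6 and 7), with adjusted p from 0.0219 to 0.141. That of Gjb6 was lost without any 1 of 12 of the 15 libraries, being kept without euploid 2, euploid 3 or Ts65Dn 1, with adjusted p from 0.0261 to 0.186.

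**Figure D2:**
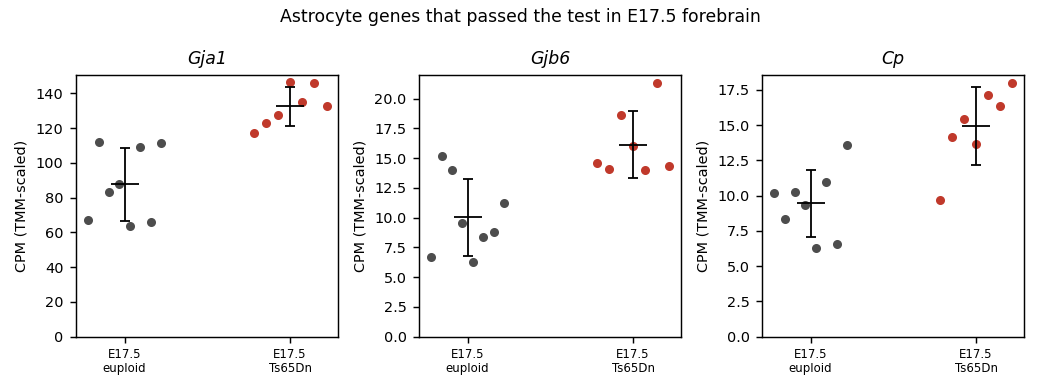
Levels of Gja1, Gjb6 and Cp in each library of the embryonic forebrain, in CPM from 0, for 8 euploid and 7 Ts65Dn embryos, with the mean ± SD of each group. The 7 Ts65Dn libraries of Gja1, from 117 to 147 CPM, all lie above the 8 euploid libraries, while 1 Ts65Dn library of Cp, at 9.71 CPM, lies within the euploid range.

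By role, the 8 metabolic and signalling genes and the 6 transport genes all had positive fold changes in the embryo, with medians of 0.26 for each set on the log2 scale, and none of them was called. The largest among them was Ranbp3l, a nuclear export factor of RanBP3 type, at 0.79 ± 0.22 (adjusted p = 0.13). Pla2g7, a secreted phospholipase that cleaves platelet-activating factor, was at 0.65 ± 0.30 (adjusted p = 0.412), and Glul at 0.19 ± 0.07 (adjusted p = 0.268). Among the 5 gap junction and adhesion genes the median was 0.30, and Mlc1, a membrane protein of the end feet, was the 1 gene with a negative value, at -0.03. Of the 7 secreted proteins 4 were positive with a median of 0.07, from Sparcl1 at 0.47 ± 0.15 (adjusted p = 0.196) to Mfge8, a bridging protein for phagocytosis, at -0.19 ± 0.10 (adjusted p = 0.445).

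The 6 identity and transcription factor genes had a median log2 fold change of 0.12, with 4 positive. Aldh1l1 ranged from 32.4 to 75.3 CPM in euploid embryos (median 52.2 CPM) and from 48.1 to 82.1 CPM in Ts65Dn embryos (median 65.1 CPM), with largely overlapping groups and a log2 fold change of 0.34 ± 0.16 (adjusted p = 0.4). Aqp4 ranged from 7.07 to 39.4 CPM (median 14.9 CPM) and from 16.5 to 42.7 CPM (median 25.2 CPM), with a log2 fold change of 0.59 ± 0.31 (adjusted p = 0.454). Gfap ranged from 6.14 to 15.8 CPM (median 7.88 CPM) and from 1.65 to 15.1 CPM (median 7.07 CPM), with a log2 fold change of -0.14 ± 0.34 (adjusted p = 0.883). The fold change of Aqp4 was as large as that of Gja1 but had a larger standard error. For Gfap the ranges overlapped, with 3 of the 7 Ts65Dn libraries below every euploid library.

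Genes of other cells in and around the forebrain moved with the embryonic result. Of 7 genes of meningeal fibroblasts 6 had positive fold changes with a median of 0.50 and none was called, and their summed level was 383 to 710 CPM in 7 euploid libraries and 1950 CPM in euploid replicate 3, against 690 to 1040 CPM in Ts65Dn libraries. Of 8 genes of the choroid plexus epithelium all 8 had positive fold changes with a median of 0.48 and none was called, with sums of 53.9 to 1420 CPM in euploid and 651 to 1520 CPM in Ts65Dn libraries. With the fibroblast sum as a covariate, a fit added after the data had been seen, the log2 fold changes of Gja1, Gjb6 and Cp were 0.51, 0.50 and 0.52 with adjusted p of 0.162, 0.246 and 0.265, so that none of the 35 genes was called, where 1.03% of all genes were. With the choroid plexus sum they were 0.56, 0.72 and 0.56 with adjusted p of 0.114, 0.155 and 0.191, and again none was called (0.762% of all genes). The lowest of these fold changes was 0.50. Of 7 endothelial genes none was called, 6 had positive fold changes with a median of 0.18, and 2 had an unadjusted p below 0.05. The part of dissection or of these cells in the embryonic result was not tested beyond these fits.

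A further number in the titles splits the embryos into a set of 8 (4 euploid and 4 Ts65Dn) and a set of 7 (4 and 3), and the labels do not say what it marks. With this number as a block the calls of Gja1 (0.59, adjusted p = 0.051), Gjb6 (0.71, adjusted p = 0.0892) and Cp (0.64, adjusted p = 0.0902) were kept, where 1.24% of all genes were called.

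**Figure D3:**
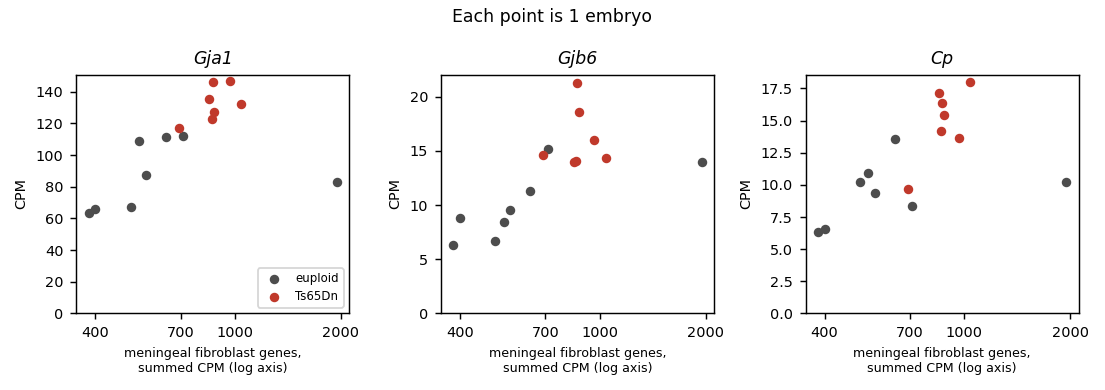
Levels of Gja1, Gjb6 and Cp (CPM) against the summed level of 7 meningeal fibroblast genes (CPM, log axis) in each embryonic forebrain library, by genotype. The Ts65Dn libraries, at 690 to 1040 CPM of fibroblast genes, lie to the right of most euploid libraries, and euploid replicate 3 stands apart at 1950 CPM.

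Radial glia genes were not shifted as a list in the embryo. Of 10 of them none was called, 4 had positive fold changes and the median was -0.01. Of 30 further astrocyte genes outside the 36, 29 were tested, and their median was 0.19 with 21 positive. Of 27 further genes of reactive astrocytes none was called, with a median of 0.17, and of 10 genes of gp130 and STAT3 cytokine signalling, the pathway through which CNTF and LIF drive astrocyte formation, none was called either, with a median of 0.14.

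In the male hippocampus, Agt was the 1 gene of the 36 called in Ts65Dn against euploid mice, and it was lower. Agt encodes angiotensinogen, the precursor of the angiotensin peptides, which astrocytes secrete in the brain. Among all 16851 genes 0.795% were called. Negative fold changes were found in 28 of the 36 genes, their median on the log2 scale was -0.06 against 0.00 over all genes, and 11 of the 36 (30.6%) had an unadjusted p below 0.05, against 8.91% of all genes. Agt was known to be lower in these samples when the list was made, so its call adds no independent evidence.

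Agt ranged from 17.9 to 37.3 CPM with a median of 23 CPM in male euploid mice, from 11.7 to 19.8 CPM with a median of 16 CPM in male Ts65Dn mice and from 14.8 to 19.9 CPM with a median of 17.9 CPM in male Ts65Dn;Brwd1+/- mice. Of the 7 Ts65Dn libraries 6 lay below every euploid library, and the highest, B88, lay within the euploid range. The log2 fold change of Ts65Dn against euploid was -0.63 ± 0.13, with an adjusted p of 0.0255. The call held in every fit that left out 1 library, with log2 fold changes of -0.70 to -0.51 and adjusted p of 0.0163 to 0.0756. Without the 6 libraries that went against their labels it was -0.72 ± 0.15 (adjusted p = 0.0168).

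The 250 bases upstream of the start of Agt, at chr8:124569707-124569956 on the minus strand of GRCm38.p6, are shown because Agt was the member lowered in adult males, with capitals as above.
Agt: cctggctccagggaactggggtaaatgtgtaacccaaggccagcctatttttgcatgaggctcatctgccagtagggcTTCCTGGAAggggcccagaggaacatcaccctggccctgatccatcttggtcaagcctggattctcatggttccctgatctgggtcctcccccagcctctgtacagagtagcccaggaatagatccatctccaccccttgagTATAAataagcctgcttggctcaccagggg
The letters of a TATA box were found at position -30 and those of the STAT element at position -172. Angiotensinogen is known in liver as a gene that responds to cytokines and glucocorticoids. In male Ts65Dn against euploid hippocampus none of 11 genes of gp130 and STAT3 signalling was called, with a median of -0.02. None of 13 glucocorticoid-responsive genes was called, with a median of 0.01. Among all genes 0.795% were called, so lists of this size would seldom hold a call. The part of these signals in the level of Agt was not tested.

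None of the other 35 genes was called in Ts65Dn against euploid males. All 5 gap junction and adhesion genes had negative values with a median of -0.07, led by Gjb6 at -0.21 ± 0.09 (adjusted p = 0.47) and Gja1 at -0.15 ± 0.05 (adjusted p = 0.365). Among the 7 secreted proteins 6 had negative values with a median of -0.09, including Mfge8 at -0.26 ± 0.07 (adjusted p = 0.14) and Clu at -0.19 ± 0.07 (adjusted p = 0.413). Among the 6 identity genes 5 were negative with a median of -0.09, from Sox9 at -0.23 to Aqp4 at 0.02. Of the 4 reactivity genes 2 were positive, with a median of 0.04: Serpina3n was at 0.17 ± 0.07 (adjusted p = 0.469), Lcn2 at 0.21 ± 0.79 (adjusted p = 0.967), Osmr, the oncostatin M receptor, at -0.10 ± 0.18 (adjusted p = 0.924) and Cp at -0.36 ± 0.23 (adjusted p = 0.696). Ranbp3l was at -0.33 ± 0.21 (adjusted p = 0.702).

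Without the 6 libraries that went against their labels, 5 astrocyte genes were called lower in male Ts65Dn mice, and 1.54% of all genes were called. Besides Agt these were Clu at -0.28 ± 0.05 (adjusted p = 0.00964), Gja1 at -0.22 ± 0.05 (adjusted p = 0.0394), Slc1a3 at -0.17 ± 0.04 (adjusted p = 0.0744) and Mfge8 at -0.28 ± 0.07 (adjusted p = 0.0779). Of the 36 genes 30 had negative values in that fit. B88, left out there, held the most choroid plexus and meningeal fibroblast RNA of the male Ts65Dn libraries, with sums of 5210 and 668 CPM. The male Ts65Dn libraries kept held 43.5 to 2970 CPM of choroid plexus genes, against 114 to 4950 CPM in euploid males. The part of these cells in the added calls was not tested. For Gja1, B145 was the highest of the 7 male Ts65Dn libraries at 271 CPM, where the other 6 ranged from 206 to 233 CPM and the euploid males from 228 to 276 CPM.

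**Figure D4:**
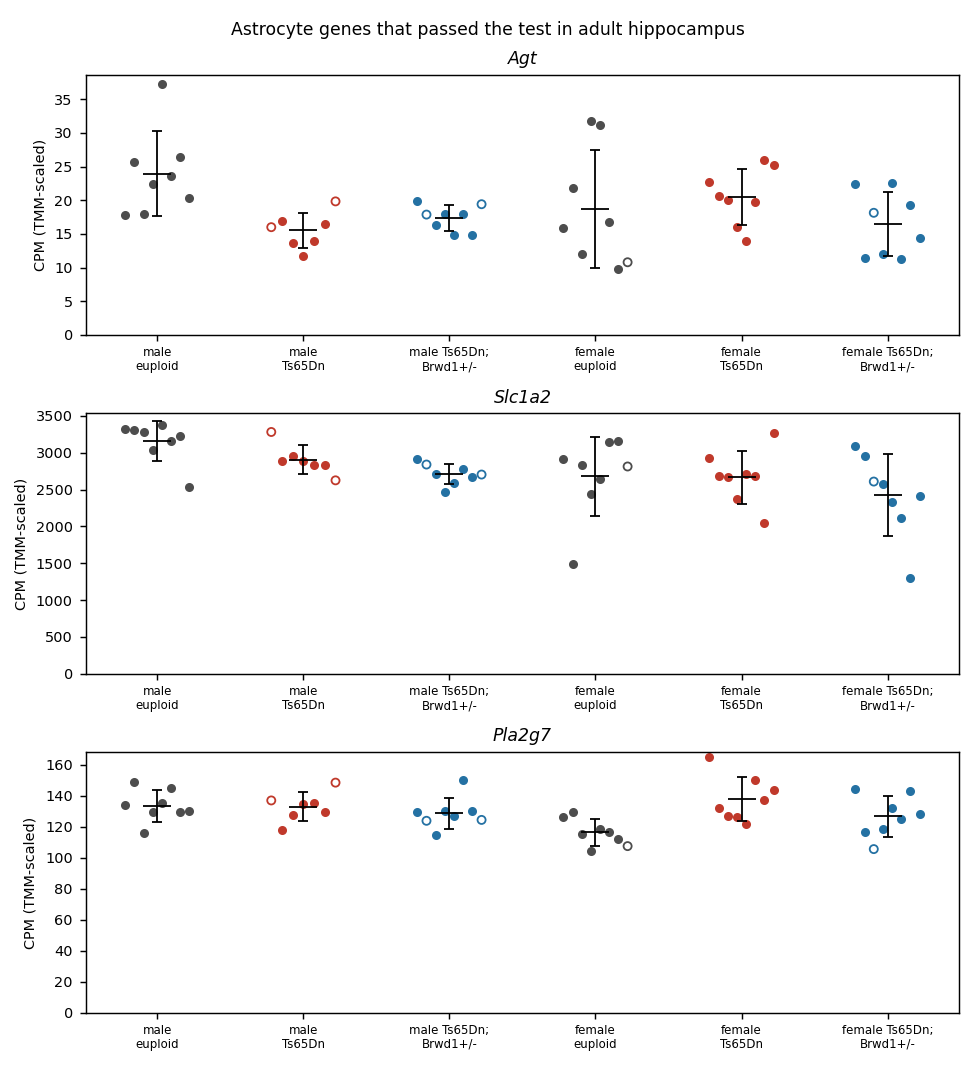
Levels of Agt, Slc1a2 and Pla2g7 in each adult hippocampus library, in CPM from 0, by sex and genotype, with the mean ± SD of each group and with open circles for the libraries that went against their labels. For Agt, 6 of the 7 male Ts65Dn libraries lie below all 8 male euploid libraries, and the female groups overlap.

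Against Ts65Dn, the male Ts65Dn;Brwd1+/- hippocampus showed no call among the 36 genes by edgeR, with 3 genes (8.33%) at an unadjusted p below 0.05 against 7.48% of all genes. Among all genes 0% were called, and DESeq2 called 1 gene and none of the 36. Agt had a log2 fold change of 0.16 ± 0.13 (adjusted p = 0.814), with 6 of 8 libraries above the Ts65Dn median. The lowest unadjusted p belonged to Slc4a4, the sodium bicarbonate cotransporter, at -0.19 ± 0.06 (adjusted p = 0.626). Glul was at -0.11 ± 0.04 and Acsbg1, an acyl-CoA synthetase, at -0.09 ± 0.04, with adjusted p of 0.626 and 0.636. The median over the 36 genes was -0.02, and 25 of the 36 values were negative. Without the libraries that went against their labels none of the 36 was called, 1 gene was called in all, and 17 of the 36 values were negative.

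Against euploid males, which served as controls for Ts65Dn too, the Ts65Dn;Brwd1+/- males had 1 gene called lower, Slc1a2, where 0.576% of all genes were called. A negative value was found in 31 of the 36 genes with a median of -0.11, against 0.00 over all genes, and 13 genes (36.1%) had an unadjusted p below 0.05, against 10.1%. Slc1a2 encodes GLT-1, which takes up most of the glutamate released in the forebrain. It ranged from 2537 to 3376 CPM with a median of 3249 CPM in euploid males, from 2625 to 3282 CPM with a median of 2888 CPM in Ts65Dn males and from 2470.7 to 2909.2 CPM with a median of 2708 CPM in Ts65Dn;Brwd1+/- males. All 8 Ts65Dn;Brwd1+/- libraries lay below the euploid median, but 1 of them lay below the lowest euploid library, B95, which stood apart from the other 7 euploid males (3036 CPM and above).

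The log2 fold change of Slc1a2 was -0.22 ± 0.05 (adjusted p = 0.0581) in Ts65Dn;Brwd1+/- against euploid males, -0.12 ± 0.05 (adjusted p = 0.499) in Ts65Dn against euploid males and -0.10 ± 0.05 (adjusted p = 0.686) between the trisomic genotypes. The first call was lost when any 1 of 11 of the 23 male libraries was left out (euploid B79, B80, B84, B100, B110 and B122 and Ts65Dn;Brwd1+/- B24, B26, B51, B69 and B94), with adjusted p from 0.00894 to 0.154 and log2 fold changes from -0.26 to -0.20. Agt was at -0.46 ± 0.13 (adjusted p = 0.136) against euploid males. Without the libraries that went against their labels 4 genes were called, where 1.83% of all genes were: Clu at -0.28 (adjusted p = 0.00426), Slc1a2 at -0.23 (adjusted p = 0.027), Slc4a4 at -0.21 (adjusted p = 0.032) and Gja1 at -0.18 (adjusted p = 0.0803).

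In the female hippocampus, 1 of the 35 astrocyte genes tested was called in Ts65Dn against euploid mice, Pla2g7, which was higher, where 3.17% of all 17146 genes were called. There were 12 positive values among the 35 genes, the median was -0.03 against -0.02 over all genes, and 3 genes (8.57%) had an unadjusted p below 0.05 against 15.4%. Pla2g7 ranged from 104 to 130 CPM with a median of 116 CPM in euploid females, from 122.04 to 165 CPM with a median of 134.8 CPM in Ts65Dn females and from 106 to 144.5 CPM with a median of 127 CPM in Ts65Dn;Brwd1+/- females. All 8 Ts65Dn libraries lay above the euploid median and 5 of them above every euploid library. The log2 fold change was 0.24 ± 0.07, with an adjusted p of 0.0764.

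For Pla2g7, the member raised in adult females, the window before a listed transcript start is given, at chr17:43568201-43568450 on the plus strand of GRCm38.p6. This window lies inside the annotated gene, which begins at 43567994.
Pla2g7: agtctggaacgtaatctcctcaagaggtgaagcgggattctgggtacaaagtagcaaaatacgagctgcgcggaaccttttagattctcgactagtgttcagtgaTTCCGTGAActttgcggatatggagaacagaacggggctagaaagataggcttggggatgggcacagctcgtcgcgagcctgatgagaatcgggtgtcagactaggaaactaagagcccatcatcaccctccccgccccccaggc
Its capitals are the letters of the STAT element at position -145. Next in order were Ppp1r3c, which targets a phosphatase to glycogen, at 0.20 ± 0.06 (adjusted p = 0.103) and Serpina3n at 0.32 ± 0.10 (adjusted p = 0.111). Agt ranged from 9.76 to 31.8 CPM with a median of 16.3 CPM in euploid females, from 14 to 25.96 CPM with a median of 20.3 CPM in Ts65Dn females and from 11.3 to 22.6 CPM with a median of 16.3 CPM in Ts65Dn;Brwd1+/- females. These groups overlapped, with a log2 fold change of 0.12 ± 0.23 (adjusted p = 0.864) in Ts65Dn against euploid females.

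The call of Pla2g7 depended on the libraries used. Without the libraries that went against their labels its log2 fold change was 0.23 ± 0.07 (adjusted p = 0.105), and no astrocyte gene was called, where 1.9% of all genes were. The adjusted p ranged from 0.0317 to 0.153 when 1 library at a time was left out, and the call was lost without any 1 of 6 of the 24 libraries (euploid B17, B65 and B85 and Ts65Dn B103, T139 and T142). Without B125 and B176, a fit added after the data had been seen, 17.4% of all genes were called in either direction and 8.19% of all genes were called higher, and so were 4 astrocyte genes: Pla2g7 at 0.27 (adjusted p = 0.018), Ppp1r3c at 0.20 (adjusted p = 0.048), Serpina3n at 0.33 (adjusted p = 0.056) and Aldoc at 0.24 (adjusted p = 0.057).

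Between the trisomic genotypes in females no astrocyte gene was called by edgeR, and 0% of all genes were. At an unadjusted p below 0.05 there were 2 genes (5.71%), against 3.52% of all genes, and DESeq2 called 14 genes and none of the 35. Sox9 had the lowest unadjusted p, with a log2 fold change of -0.26 ± 0.08 (adjusted p = 0.92), and Ppp1r3c was at -0.15 ± 0.06 (adjusted p = 1.0). Pla2g7 was at -0.12 ± 0.07 (adjusted p = 1.0). Against euploid females, which are shared with the Ts65Dn comparison, no astrocyte gene was called in Ts65Dn;Brwd1+/- females either, by edgeR or by DESeq2, where 0.729% of all genes were called, with 2 genes at an unadjusted p below 0.05 (Sox9 at -0.20 ± 0.08 and Slc1a3 at -0.11 ± 0.05). The median of the 35 genes was -0.10 against -0.01 over all genes. Without the libraries that went against their labels no astrocyte gene was called in either comparison. Without B125 and B176, Slc4a4 was lower in Ts65Dn;Brwd1+/- than in euploid females, at -0.26 (adjusted p = 0.0934), where 4.44% of all genes were called.

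**Figure D5:**
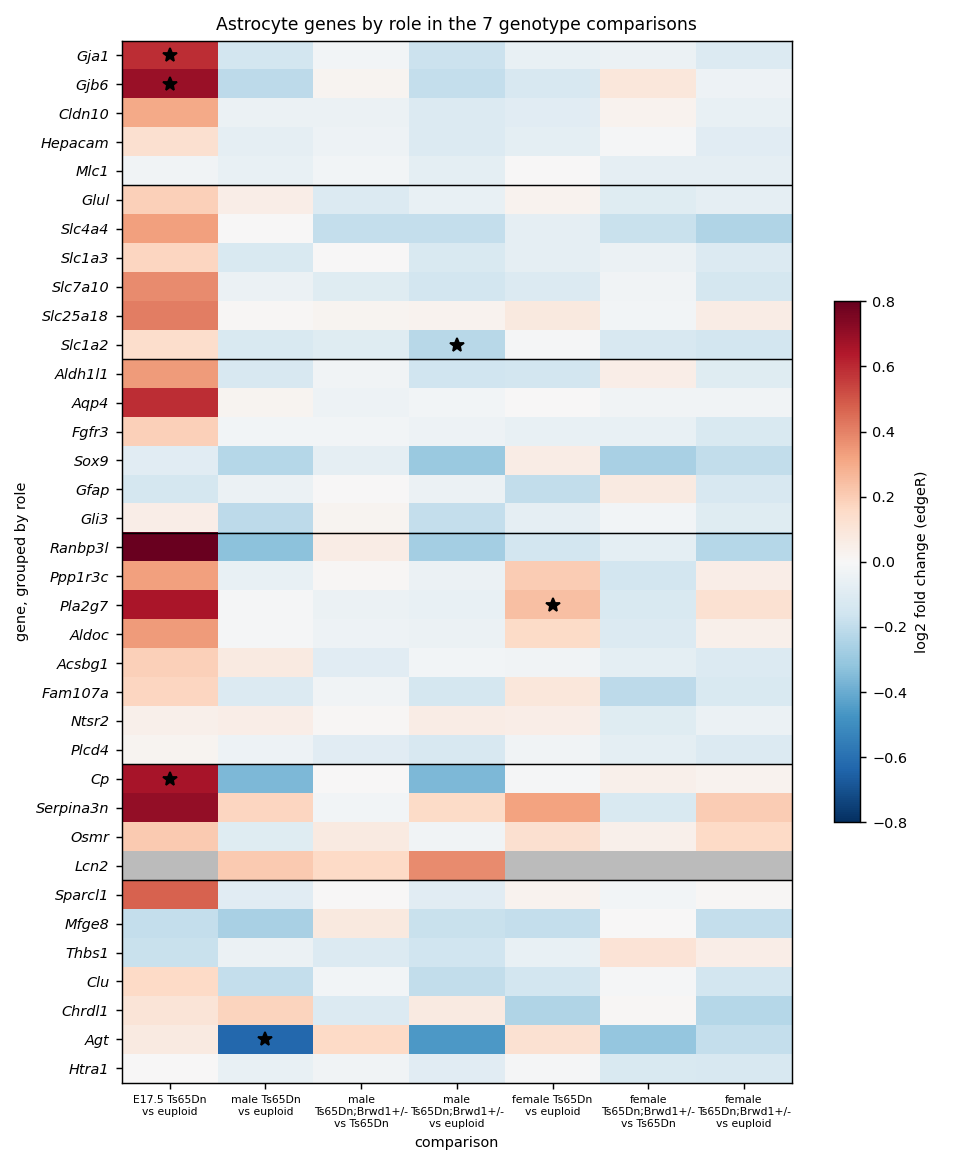
Log2 fold changes of the 36 astrocyte genes in the 7 genotype comparisons, grouped by role, with stars for the calls at an adjusted p below 0.1 and grey for genes not tested. The stars are those of Gja1, Gjb6 and Cp in the embryo, Agt and Slc1a2 in males and Pla2g7 in females.

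The genotype effects were not shown to differ between the sexes for any astrocyte gene. In a fit of all 6 adult groups, the sex by genotype term for Ts65Dn against euploid called none of the 36 genes and 0% of 17427 genes by edgeR, with 4 of the 36 and 1935 of all genes at an unadjusted p below 0.05, while DESeq2 called 94 genes and none of the 36. The female minus male difference in log2 fold change was 0.76 ± 0.28 for Agt (adjusted p = 0.315), 0.25 ± 0.09 for Pla2g7 (adjusted p = 0.295), 0.27 ± 0.09 for Ppp1r3c (adjusted p = 0.277) and 0.30 ± 0.13 for Sox9 (adjusted p = 0.381). Without the libraries that went against their labels none of the 36 was called either, with 0.77 ± 0.30 for Agt (adjusted p = 0.465), 0.28 ± 0.09 for Pla2g7 (adjusted p = 0.429), 0.25 ± 0.10 for Ppp1r3c (adjusted p = 0.465) and 0.42 ± 0.13 for Sox9 (adjusted p = 0.42). For Ts65Dn;Brwd1+/- against Ts65Dn the term called 0% of all genes and none of the 36, with none of the 36 and 650 of all genes at an unadjusted p below 0.05, and DESeq2 called 1 gene and none of the 36.

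None of the 3 general markers was called in an adult group in the main fits. Gfap had median levels of 355, 339 and 340 CPM in male euploid, Ts65Dn and Ts65Dn;Brwd1+/- mice, with log2 fold changes of -0.05 ± 0.09 in both trisomic genotypes against euploid. In females its medians were 340, 315 and 339 CPM, with a log2 fold change of -0.20 ± 0.11 (adjusted p = 0.386) in Ts65Dn mice. Aqp4 had log2 fold changes against euploid from -0.03 to 0.02 over the 4 adult comparisons. Aldh1l1 had medians of 46.5, 40.7 and 41.1 CPM in males and 43.8, 41.1 and 42.3 CPM in females, and its values were -0.13 ± 0.06 (adjusted p = 0.482) and -0.15 ± 0.08 (adjusted p = 0.413) in Ts65Dn males and females. All groups of these 3 genes overlapped in the adult.

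Over the 7 genotype comparisons, in the main fits, 6 of the 36 genes were called in at least 1 of them and 30 in none. The log2 fold changes of these 30 lay between -0.19 and 0.79 in the embryo, between -0.33 and 0.38 in males and between -0.26 and 0.32 in females. Of the genotype comparisons Lcn2 was tested in males alone, with too few reads in the embryos and females to pass the filter on low counts.

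Other genes of the pathways that the astrocyte genes belong to were counted in the same fits. Of the renin-angiotensin genes besides Agt, Anpep and Enpep, peptidases that trim angiotensins, were higher in Ts65Dn embryos, at 0.61 ± 0.14 (adjusted p = 0.0614) and 0.78 ± 0.20 (adjusted p = 0.0973). These were 2 of 11 genes tested, where 1.10% of all genes were called higher. Both are also expressed by cells of vessels and meninges. With the fibroblast sum as a covariate Anpep was at 0.45 (adjusted p = 0.236) and Enpep at 0.76 (adjusted p = 0.24), with the choroid plexus sum they were at 0.59 (adjusted p = 0.155) and 0.76 (adjusted p = 0.199), and neither was called in these fits. With the further number in the titles as a block Anpep was called (0.61, adjusted p = 0.0789) and Enpep was not (0.78, adjusted p = 0.126). In adults none of the 9 genes tested in males and none of the 11 tested in females was called in any comparison.

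Among the 30 further astrocyte genes, S100b, a calcium-binding protein of mature astrocytes, was higher in Ts65Dn females, at 0.30 ± 0.08 (adjusted p = 0.0387). This was 1 of 30 genes tested, where 3.17% of all genes were called, and is not read as a result about the list. Cbs, an enzyme of transsulfuration, was lower in Ts65Dn;Brwd1+/- mice of both sexes against euploid, at -0.38 ± 0.09 (adjusted p = 0.058) in males and -0.48 ± 0.09 (adjusted p = 0.00755) in females. Phkg1, a glycogen phosphorylase kinase subunit, was lower in those females, at -0.28 ± 0.07 (adjusted p = 0.0827). In Ts65Dn;Brwd1+/- against euploid mice 0.576% of all genes were called in males and 0.729% in females. These calls were kept without the libraries that went against their labels, with S100b at 0.30 (adjusted p = 0.042), Cbs at -0.46 (adjusted p = 0.000125) in males and -0.52 (adjusted p = 0.00207) in females and Phkg1 at -0.31 (adjusted p = 0.0736). No other call was made among these 30 genes in adults. None of the 31 further reactive astrocyte genes tested was called in any adult comparison, where 0% to 3.17% of all genes were.

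Of 11 genes of gp130 and STAT3 signalling, Jak1, a kinase that gp130 receptors use, was higher in Ts65Dn females at 0.20 ± 0.06 (adjusted p = 0.0876), and none was called elsewhere. In Ts65Dn against euploid females 3.17% of all genes were called. The call of Jak1 was lost without the libraries that went against their labels (0.20, adjusted p = 0.161). Of 13 glucocorticoid-responsive genes 3 were lower in Ts65Dn females: Hif3a at -1.16 ± 0.27 (adjusted p = 0.0281), Plin4 at -1.06 ± 0.26 (adjusted p = 0.0363) and Per1 at -0.42 ± 0.10 (adjusted p = 0.0383). All 13 had negative values there with a median of -0.14, where 54.3% of all genes had negative values and 1.22% were called lower. Leaving out the libraries that went against their labels, Hif3a was at -1.25 (adjusted p = 0.0172), Plin4 at -1.15 (adjusted p = 0.0261) and Per1 at -0.40 (adjusted p = 0.0919), and 12 of the 13 values were negative. Without B125 they were at -1.25 (adjusted p = 0.0112), -1.15 (adjusted p = 0.0137) and -0.44 (adjusted p = 0.0262), with all 13 values negative and 4.61% of all genes called lower. In Ts65Dn;Brwd1+/- against Ts65Dn females all 13 had positive values with a median of 0.15 and none was called. These 2 comparisons share the Ts65Dn females. In the embryo none of the 13 was called.

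Markers of other cells were counted beside the adult results. Aif1, a microglial gene, was higher in males, at 0.56 ± 0.14 (adjusted p = 0.0761) in Ts65Dn and 0.57 ± 0.14 (adjusted p = 0.0656) in Ts65Dn;Brwd1+/- mice against euploid, the 1 microglial gene of 7 called. Flt1, an endothelial gene, was lower in Ts65Dn;Brwd1+/- against euploid males at -0.35 ± 0.09 (adjusted p = 0.0898), 1 of 7 endothelial genes. Among all genes 0.795% were called in Ts65Dn and 0.576% in Ts65Dn;Brwd1+/- against euploid males. These calls held without the libraries that went against their labels, with Aif1 at 0.62 (adjusted p = 0.0494) and 0.58 (adjusted p = 0.0512) and Flt1 at -0.38 (adjusted p = 0.0396). No gene of the neuronal, thalamic, oligodendrocyte, radial glia, meningeal, choroid plexus or ependymal lists was called in any comparison. In male Ts65Dn against euploid mice 7 of the 8 choroid plexus genes and all 7 fibroblast genes had negative values, with medians of -0.31 and -0.28, and with the choroid plexus sum as a covariate Agt was at -0.57 (adjusted p = 0.0493). With the same covariate Slc1a2 was at -0.23 (adjusted p = 0.0477) in Ts65Dn;Brwd1+/- against euploid males and Pla2g7 at 0.24 (adjusted p = 0.0701) in Ts65Dn against euploid females. The part of microglia and endothelial cells in these results was not tested.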

How the data were processed

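RNA from 15 embryonic forebrains and 47 adult hippocampi was sequenced with a polyA-selected TruSeq kit that does not keep strand, so that genes overlapping on opposite strands cannot be told apart. The authors concatenated reads from 2 flow cells and deposited raw counts per gene; the submitters' processing notes name HISAT2 2.1.0, featureCounts 2.0.1 and the builds mm10 and mm9. Each library is 1 animal. The 36 genes and the other gene lists were chosen with earlier results of these data known.

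From these counts, genes were kept by filterByExpr (minimum count 10), scaled by TMM and tested with edgeR 4.0.16 (quasi-likelihood, robust) in R 4.3.3, with Benjamini-Hochberg adjustment over all genes tested and calls at 0.1. Embryos, males and females were fitted separately, each with all its genotypes, and the sexes were compared in 1 fit of the 6 adult groups. CPM were scaled within the embryos and jointly over the adults. RPKM used GENCODE exon lengths and scaling over all 62 libraries. Standard errors are fold changes divided by the square root of the F statistic. The scripts were tested on simulated data. Libraries of a group differed beyond sampling noise (lowest chi-square per degree of freedom 9.05). Values per library are given for genes called in any genotype comparison and for Gfap, Aqp4, Aldh1l1 and Agt, and at most 3 genes of any other list are named per comparison. A result among the further astrocyte genes in embryos is not reported here. The alternatives were DESeq2 1.42.0, RUVr factors, upper-quartile scaling, no filter, a threshold of 0.05, 2-group fits, blocks, covariates and left-out libraries. Of these, DESeq2 with RUVr factors is nearest to the paper, which normalized by RUVr and tested by DESeq2 but does not name the number of factors.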

Additional observations from a re-analysis of the deposited data

Results flagged for a closer look

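In 72 groups of libraries (9 genes in 8 groups) the library at either end was set against the others, and in 11 of them its gap to the nearest library exceeded Dixon's 95% limit, where chance gives about 1 in 20. Female euploid B125 accounted for 4 of the 11: it was the lowest of its group for Slc1a2 (1486 CPM, next 2441), Aqp4 (102 CPM, next 151) and Gja1 (160 CPM, next 206) and the highest for Aldh1l1 (60.2 CPM, next 46.9). Among males, euploid B95 was low for Slc1a2 (2537 CPM, next 3036), euploid B79 was high for Agt (37.3 CPM, next 26.5) and Ts65Dn;Brwd1+/- B69 was high for Pla2g7 (150.2 CPM, next 130.3). The male Ts65Dn libraries that stood apart were both among those against their labels, B145 for Gja1 (271 CPM, next 233) and B88 for Cp (21.8 CPM, next 11.9). In embryos, euploid 3, the library with the most meningeal fibroblast RNA, was high for Gfap (15.8 CPM, next 10.5), and Ts65Dn 1 was low for Slc1a2 (105 CPM, next 147).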

How the results depend on the processing

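The counts in this paragraph are of astrocyte genes alone. The share of all genes called in the same fits is not set beside them. They describe how the calls depend on the fit and are not read as results about the astrocyte genes. In Ts65Dn embryos the count of astrocyte genes called was 3, and it was 5 with DESeq2, 13 with DESeq2 and 3 RUVr factors (12 higher and 1 lower), 7 with edgeR and 1 RUVr factor, 1 at a threshold of 0.05, 0 with either covariate and 1 to 4 without 1 library. The embryo numbers in the titles gave correlations of deviations from -0.24 to 0.337 over 7 pairs, and no embryo correlated best with its own number, so they were not taken as pairs; with the replicate block 1 gene, Gja1, was called. With the further number in the titles as a block 3 genes were called. In male Ts65Dn against euploid mice the count was 1, and it was 2, 12 (11 lower) and 2 with the same first 3 alternatives, 5 without the libraries against their labels and 1 to 2 without 1 library. In males between the trisomic genotypes it was 0, with 2 and 1 under 3 and 1 RUVr factors and 0 without 1 library. In Ts65Dn;Brwd1+/- against euploid males it was 1, and 4, 13 and 3 with the first 3 alternatives, 0 at 0.05, 3 with only the 2 groups, 4 without the libraries against their labels and 0 to 3 without 1 library. In female Ts65Dn against euploid mice it was 1, and 3, 6 and 3 with the first 3 alternatives, 0 with upper-quartile scaling, no filter, the threshold of 0.05, identifiers starting with B only or the libraries against their labels left out, 2 with only the 2 groups, 3 with the choroid plexus covariate, 4 without B125 and B176 and 0 to 3 without 1 library. In females between the trisomic genotypes it was 0, and 2 with 3 RUVr factors and 0 without 1 library. In Ts65Dn;Brwd1+/- against euploid females it was 0, and 6 and 1 with 3 and 1 RUVr factors, 1 without B125 and B176 and 0 to 1 without 1 library. The fits with covariates in embryos, without B125 and B176 and for genes outside the 36 were chosen after seeing the data, and the cause of these shifts was not tested. The sex by genotype counts were 0 in every fit run.

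Aldh1l1 gained a call, as lower, in 1 alternative fit each of male Ts65Dn, male Ts65Dn;Brwd1+/- and female Ts65Dn against euploid (adjusted p = 0.0728, 0.0137 and 0.0801). In embryos it was called higher in 2 of 11 alternatives (lowest adjusted p = 0.00038). Agt was called lower in Ts65Dn;Brwd1+/- against euploid males in 3 of 10 alternatives (lowest adjusted p = 0.00539) and in 1 of 23 fits without 1 library (0.0954). No called fold change changed sign under any alternative. Fold changes near 0 did: Agt in embryos was -0.05 with the choroid plexus covariate and -0.05 to 0.27 without 1 library. Without the libraries against their labels, Aqp4 was -0.05 in male Ts65Dn against euploid, 0.08 between the male trisomic genotypes and 0.03 in Ts65Dn;Brwd1+/- against euploid males, and Aldh1l1 was 0.02 between the male trisomic genotypes. With identifiers starting with B only, Aqp4 was 0.01 in Ts65Dn;Brwd1+/- against euploid males and Agt -0.01 in Ts65Dn against euploid females, and without B125 and B176 Aqp4 was 0.02 between the female trisomic genotypes. Without 1 library, Gfap ran from -0.37 to 0.06 in embryos and from -0.11 to 0.01 in male Ts65Dn against euploid, where Aqp4 ran from -0.03 to 0.05. Aqp4 ran from -0.07 to 0.01 between the male and -0.07 to 0.02 between the female trisomic genotypes, from -0.04 to 0.01 and -0.10 to 0.02 in Ts65Dn;Brwd1+/- against euploid males and females, and Aldh1l1 from -0.04 to 0.01 between the male trisomic genotypes. Lcn2 was at or below 1.01 CPM in every library, too low to be tested in embryos and females.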
